A study of Mus musculus with 12 samples.

Results

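The genes described here are 8 mouse members of the tripartite motif (TRIM) family, Trim12a, Trim12c, Trim30a, Trim30b, Trim30d, Trim34a, Trim21 and Trim14, out of 24421 rows in the deposited gene tables. They were chosen by gene symbol, and the choice was made with values in view, since Trim12a was selected on its near absence in basal miR-182-deficient cells. For that reason the levels in basal cells of that genotype, and their contrast with WT, are given as a description with no test. All 8 symbols were found in all 12 samples. RNA-seq was run on bone marrow-derived macrophages (BMMs, the precursors of osteoclasts) from mice labelled C57BL/6, in 6 conditions with 2 replicates each.

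The loss of function experiment held WT cells, of genotype Mir182+/+LysMcre(+), and Mir182ΔM/ΔM cells, of genotype Mir182flox/floxLysMcre(+), each without RANKL (basal) and with RANKL, the cytokine that drives osteoclast formation. The gain of function experiment held Control cells, labelled LysMcre(+), and Mir182mTg cells, labelled LSL-Mir182LysMcre(+), both basal. In the latter, Mir182 sits behind a stop cassette that Cre removes. Every sample was grown with M-CSF, the macrophage growth factor, for 3 days, and RANKL was given for 5 days. All groups carry Cre recombinase under the lysozyme M promoter, which is active across the myeloid lineage, so alleles are changed there and not in the whole animal. The paper calls the 2 replicates of a condition independent and biological, but neither it nor a label says whether they came from separate mice. The p-values therefore measure the spread between these samples, part of which may be technical.

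TRIM proteins carry a B-box and a coiled coil, most carry a RING domain that makes them ubiquitin ligases, and many end in a SPRY domain that binds their targets. A large share of the family responds to type I interferon, which acts through its receptor, the JAK1 and TYK2 kinases and a transcription factor complex that includes IRF9 on interferon-stimulated response elements (ISRE) of target promoters. In macrophages Trim30a is known for restraining NF-κB signaling through TAB2 and TAB3, Trim21 for binding antibody in the cytosol, and Trim14 for acting with MAVS and with the DNA sensor cGAS.

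In the GENCODE vM21 annotation of GRCm38 (also called mm10), 6 of the 8 genes lie in one cluster of TRIM genes on chromosome 7, which spans 317 kb from Trim6 to Trim30e-ps1. Trim34a is at chr7:104244457-104262234 on the plus strand. The others are on the minus strand, Trim12a at chr7:104299894-104315466, Trim12c at chr7:104338754-104353362, Trim30b at chr7:104355382-104369884, Trim30a at chr7:104409025-104465193 and Trim30d at chr7:104470014-104507849. Trim21 is on the same chromosome outside the cluster, at chr7:102557921-102565486, and Trim14 is at chr4:46493781-46536141. All 8 are annotated as protein coding. Trim12a, Trim30a, Trim34a and Trim14 overlap genes on the other strand, and Trim12c and Trim30d overlap predicted genes on the same strand, and whether strand was used in counting is not given in the sources used here, so reads in those overlaps are uncertain.

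Several of these genes are recent copies of each other. The longest coding sequence of Trim12a has 894 bases against 1494 in Trim12c, and 864 of the 894 aligned to an identical base of Trim12c. Trim30a and Trim30d were identical at 90.2% of the alignment of their coding sequences, and Trim34a and its neighbour Trim34b at 97.8%. Of all 50-base windows in the annotated transcripts of Trim34a, 39.8% also occur in Trim34b. The share of windows found in any other gene was 33% for Trim12c, mostly in Trim5, 10.4% for Trim12a, 7.49% for Trim30d and 5.98% for Trim30a. It was 0.55% for Trim30b, 0.216% for Trim21 and 0% for Trim14. Values of genes with many such windows are uncertain to the extent that their reads were split or dropped.

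The promoters are shown because most of these genes moved together after RANKL and belong to a family known for interferon response. RefSeq start sites on GRCm38.p6 were found for 7 of the 8 genes, and each window ran from 250 bases before to 50 bases after the start. The core of the ISRE, GAAANNGAAA, was searched on both strands, where its complement reads TTTCNNTTTC. It was present in the windows of 6 of the 7 matched genes and not in that of Trim30b. Of all 32851 windows of that length, 3.44% held the core. A further window of Trim30a held it too, whereas those of Trim34b and Trim6, cluster genes that are not members, did not. Whether the core bears on the shared movement was not tested. In the lines that follow, capitals mark the core, the letters read 5′ to 3′ along the gene, and each line ends at the start site or, where the core lies behind it, at the end of the core.
Trim12a: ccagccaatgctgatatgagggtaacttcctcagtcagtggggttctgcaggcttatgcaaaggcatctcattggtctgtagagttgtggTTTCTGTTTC
Trim12c: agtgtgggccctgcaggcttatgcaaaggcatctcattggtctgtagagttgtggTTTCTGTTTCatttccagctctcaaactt
Trim30a: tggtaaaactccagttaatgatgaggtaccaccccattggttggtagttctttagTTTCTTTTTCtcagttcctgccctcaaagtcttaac
Trim30d: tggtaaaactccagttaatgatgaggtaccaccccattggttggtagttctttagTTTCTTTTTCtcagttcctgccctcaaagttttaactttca
Trim34a: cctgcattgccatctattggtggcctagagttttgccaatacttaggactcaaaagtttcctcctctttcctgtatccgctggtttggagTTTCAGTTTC
Trim21: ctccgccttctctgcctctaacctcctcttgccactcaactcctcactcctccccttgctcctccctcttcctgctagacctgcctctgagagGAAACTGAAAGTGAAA
Trim30b: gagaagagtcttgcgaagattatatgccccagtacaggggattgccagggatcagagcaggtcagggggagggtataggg
Aligned at the core, the windows of Trim30a and Trim30d were identical at 181 of 186 bases, and those of Trim12a and Trim12c at 94 of 140. Trim21 held 2 overlapping cores. A match is a string of letters and not a site shown to be bound, and no match says only that these letters are not in the window.

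The miRNA removed or added in these cells is shown for its seed, bases 2 to 8, in capitals. It is encoded on the minus strand of chromosome 6 at chr6:30165962-30165986.
mmu-miR-182-5p: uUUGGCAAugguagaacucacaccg
The string TTGCCAA, which pairs with that seed, occurred in an annotated 3′ UTR of none of the 8 genes. It occurred in 2613 of the 19533 genes of the tables that have one (13.4%).

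As a check of the samples, the reads on genes per library ranged from 24951280 to 33050619, so that 3 reads were worth between 0.0908 and 0.12 CPM (reads on a gene per 1000000 reads on genes). The Mir182 row held 79 and 123 reads in the Mir182mTg samples, 1 read in a basal Mir182ΔM/ΔM sample and 0 in the other 9, so it checks the gain and cannot check the loss. The 6 macrophage markers were all above 1 CPM in every sample. The summed CPM of 6 osteoclast markers was 4959 to 5318 in WT RANKL samples and 1179 to 1264 in Mir182ΔM/ΔM RANKL samples, against 36 to 69.3 over the basal samples. Of 15 markers of other cell types found, the sum was between 14.5 and 57.8 CPM, and the erythroid marker Hbb-bs was at 0 throughout. The ribosomal precursor Rn45s was between 742 and 1176 CPM in replicate 1 and between 9778 and 21273 CPM in replicate 2 of the conditions, so values within each replicate number are given where a result could rest on one of them. In bulk RNA, fewer cells of a type and less RNA per cell cannot be told apart.

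**Figure D1:**
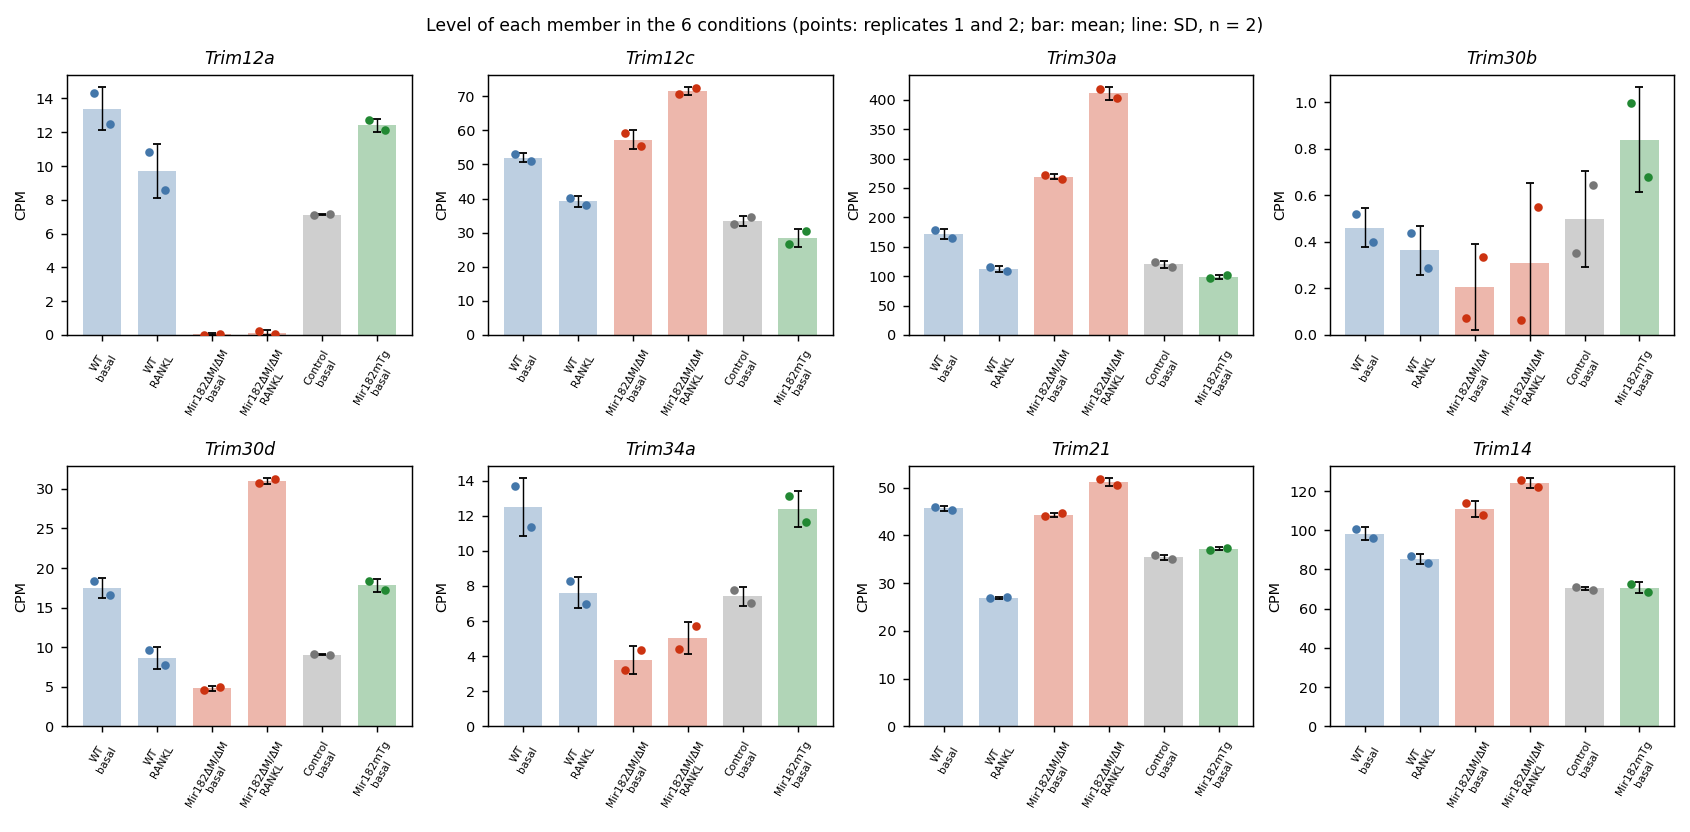
Level of each of the 8 genes in CPM (vertical axes, each from 0) in the 6 conditions; points are replicates 1 and 2, bars the mean and lines the SD of n = 2. Trim12a is at the bottom of its axis in both Mir182ΔM/ΔM conditions, whereas Trim30a, Trim30d, Trim12c, Trim21 and Trim14 are highest in Mir182ΔM/ΔM cells with RANKL.

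Trim12a is the short copy of the Trim12 pair. It had 14.3 and 12.5 CPM in the WT basal samples, 10.9 and 8.57 CPM in WT RANKL, 7.12 and 7.14 CPM in Control and 12.7 and 12.1 CPM in Mir182mTg. In basal Mir182ΔM/ΔM cells 0 and 2 reads were counted, and with RANKL 7 and 1 reads. Both Mir182ΔM/ΔM conditions were thus below all 8 other samples, and they overlapped each other. Over the summed reads, 780 in WT against 2 in Mir182ΔM/ΔM, the basal level was 364-fold higher in WT (exact 95% interval 100 to 3012, for counting error only). The count of 0 in replicate 1 allows up to 0.111 CPM. This is the contrast that selected the gene.

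The Mir182ΔM/ΔM samples with RANKL carry the same genotype as those that selected the gene, and Trim12a passed the filter on low values through its WT samples alone, so its values there are also a description with no test. The ratio of WT to Mir182ΔM/ΔM was 67.4-fold over 510 and 8 reads (exact 95% interval 33.9 to 157, for counting error only). On the log2(CPM + 1) scale of the fit, which understates changes of low genes, the difference was −3.24, with −3.27 within replicate 1 and −3.20 within replicate 2. RANKL lowered Trim12a in WT cells by a small amount, with a log2 difference of −0.43 ± 0.15 (SE, n = 2 against 2, adjusted p = 0.0354, limma). That call did not hold when replicate 1 of WT basal was left out (adjusted p = 0.161) or replicate 2 of WT RANKL (adjusted p = 0.186). It also missed the threshold narrowly without replicate 2 of WT basal or either basal Mir182ΔM/ΔM sample (adjusted p between 0.0505 and 0.0517). Nor did it hold with a pseudocount of 0.1 (adjusted p = 0.382), with no filter (adjusted p = 0.0564) or in a fit of the samples of that contrast alone (adjusted p = 0.0552).

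Trim12c, the full-length copy, which has been linked to TRAF6 and interferon induction, was at 59.3 and 55.4 CPM in basal Mir182ΔM/ΔM cells and at 53.0 and 51.1 CPM in basal WT cells. With RANKL it was at 70.8 and 72.4 CPM in Mir182ΔM/ΔM cells and at 40.3 and 38.0 CPM in WT cells. The Mir182ΔM/ΔM samples were above the WT samples in both states, with no overlap. After RANKL the log2 difference between the genotypes was 0.85 ± 0.07 (adjusted p = 9.5e-05, limma).

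The copies moved apart. Trim12a made up 21.3% and 19.7% of the reads of Trim12a and Trim12c in WT basal samples, and 21.2% and 18.4% in WT RANKL. In Control it was 18% (exact 95% interval 15.9 to 20.3, for counting error only, as for the intervals that follow) and 17.1% (14.9 to 19.5). In Mir182mTg it was 32.3% (29.8 to 35) and 28.6% (26 to 31.2), above every other sample. In the 4 Mir182ΔM/ΔM samples it lay between 0% and 0.324%. The sum of both genes was 65.4 ± 2.66 CPM (SD, n = 2) in WT basal and 57.4 ± 2.73 in Mir182ΔM/ΔM basal. After RANKL it was 48.9 ± 3.19 in WT and 71.7 ± 1.01 in Mir182ΔM/ΔM, so the summed pair was higher in Mir182ΔM/ΔM cells while Trim12a alone was lower. Control, with 40.6 ± 1.53 CPM, and Mir182mTg, with 40.9 ± 2.26, overlapped in the sum.

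**Figure D2:**
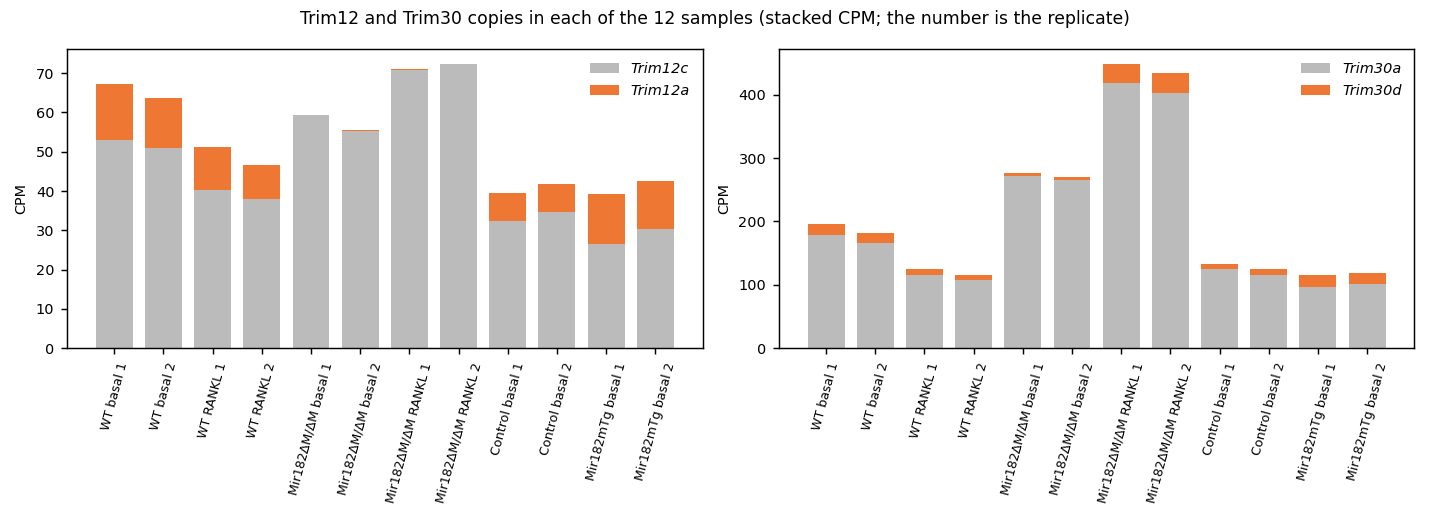
CPM (vertical axes, from 0) of Trim12a stacked on Trim12c and of Trim30d stacked on Trim30a in each of the 12 samples. The Trim12a part is absent or barely visible in the 4 Mir182ΔM/ΔM columns and widest as a share in Mir182mTg, and the Trim30d part is thinnest in basal Mir182ΔM/ΔM columns.

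Trim30a, the restrainer of TAB2 and TAB3, was the most abundant member per length in every condition, with 45.6 ± 2.33 CPM per kb (SD, n = 2) in WT basal cells. Next came Trim14 at 30.7 ± 1.05, Trim21 at 16.4 ± 0.18, Trim12c at 13.9 ± 0.37 and Trim12a at 8.79 ± 0.84 CPM per kb. Trim34a at 4.85 ± 0.64 and Trim30d at 4.66 ± 0.33 CPM per kb differed by less than their spread. Trim30b was at 0.166 ± 0.03 CPM per kb.

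In CPM, Trim30a was at 178 and 166 in WT basal samples and at 272 and 266 in Mir182ΔM/ΔM basal samples. With RANKL it was at 116 and 108 in WT and at 419 and 403 in Mir182ΔM/ΔM. The genotypes did not overlap in either state. After RANKL the level was 3.67-fold higher in Mir182ΔM/ΔM cells, a log2 difference of 1.87 ± 0.07 (adjusted p = 2.6e-06, limma). RANKL shifted the gene in opposite directions in the genotypes, by −0.61 ± 0.07 in WT (adjusted p = 1.8e-04, limma) and by 0.61 ± 0.07 in Mir182ΔM/ΔM (adjusted p = 2.2e-04, limma).

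Trim30d, the close copy of Trim30a with almost the same promoter window, did not follow it at baseline. It was at 18.4 and 16.6 CPM in WT basal samples and at 4.59 and 5.00 CPM in Mir182ΔM/ΔM basal samples. With RANKL it was at 9.66 and 7.70 CPM in WT and at 30.7 and 31.2 CPM in Mir182ΔM/ΔM, the highest samples of the 12. The order of the genotypes therefore turned with RANKL, with no overlap on either side. After RANKL the log2 difference between the genotypes was 1.73 ± 0.12 (adjusted p = 4.1e-05, limma), whereas in basal cells it was −1.67, given without a test. Within Mir182ΔM/ΔM cells RANKL raised Trim30d by 2.47 ± 0.12 on the log2 scale (adjusted p = 4.2e-06, limma), and within WT cells it fell by 0.94 ± 0.12 on that scale (adjusted p = 3.8e-04, limma). Trim30d reads were 9.33% and 9.1% of the Trim30a, Trim30b and Trim30d reads in WT basal samples and 1.66% and 1.84% in Mir182ΔM/ΔM basal samples. They were 15.8% and 14.4% in Mir182mTg against 6.82% and 7.18% in Control.

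Trim30b had at most 0.998 CPM in any sample. It did not reach 1 CPM in 2 of the 8 loss of function samples, so it was fitted only in the gain of function experiment, where Control had 0.351 and 0.642 CPM and Mir182mTg 0.998 and 0.68 CPM. The loss of function samples lay between 0.0657 and 0.551 CPM, and WT and Mir182ΔM/ΔM overlapped after RANKL.

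Trim34a, a cytoplasmic family member induced by interferon, was at 13.7 and 11.3 CPM in WT basal samples, 8.26 and 6.98 in WT RANKL, 3.22 and 4.33 in Mir182ΔM/ΔM basal and 4.40 and 5.71 in Mir182ΔM/ΔM RANKL. The 4 Mir182ΔM/ΔM samples were below the 8 others. After RANKL the log2 difference was −0.51 ± 0.17 (adjusted p = 0.0447, limma), near the threshold, and it was −0.78 within replicate 1 and −0.25 within replicate 2. With CPM divided by TMM factors, edgeR's correction for RNA composition, it was −0.38 (adjusted p = 0.117). In fits that blocked on the replicate number it passed, at −0.51 without those factors (adjusted p = 0.00144, limma), at −0.38 with them (adjusted p = 0.0174, limma) and at −0.45 by edgeR on the reads recovered from CPM (adjusted p = 0.013). Without the block it also missed the threshold without replicate 1 of WT RANKL (adjusted p = 0.188), without replicate 1 of Mir182ΔM/ΔM RANKL (adjusted p = 0.216), without replicate 2 of WT RANKL (adjusted p = 0.0685) and without replicate 1 of WT basal (adjusted p = 0.0501). The near-identical neighbour Trim34b went the other way, from 2.23 and 1.72 CPM in WT basal to 5.11 and 4.25 CPM in Mir182ΔM/ΔM basal. Of the reads on both genes, Trim34b held 14% and 13.2% in WT basal samples and 61.3% and 49.6% in Mir182ΔM/ΔM basal samples. The sum of both genes was 14.5 ± 2 CPM (SD, n = 2) in WT basal and 8.45 ± 0.18 in Mir182ΔM/ΔM basal. After RANKL it was 8.54 ± 1.29 in WT and 11.4 ± 0.48 in Mir182ΔM/ΔM. The summed pair was thus higher in Mir182ΔM/ΔM cells after RANKL, the reverse of Trim34a alone.

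Trim21, the cytosolic antibody receptor, had close values in the basal genotypes, 46.0 and 45.3 CPM in WT and 44.0 and 44.7 CPM in Mir182ΔM/ΔM. With RANKL it was at 26.8 and 27.0 CPM in WT and at 51.8 and 50.6 CPM in Mir182ΔM/ΔM, again with no overlap. The log2 difference after RANKL was 0.90 ± 0.06 (adjusted p = 4.7e-05, limma). RANKL lowered it in WT, at −0.74 ± 0.06 (adjusted p = 5.4e-05, limma). The rise in Mir182ΔM/ΔM cells was 0.20 ± 0.06 (adjusted p = 0.0298, limma), and it missed the threshold with TMM factors (0.16, adjusted p = 0.0686) and without any one of 6 libraries, all but those of WT basal (adjusted p between 0.0522 and 0.127).

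Trim14, the adaptor of MAVS, was at 101 and 95.9 CPM in WT basal, 87.1 and 83.5 in WT RANKL, 114 and 108 in Mir182ΔM/ΔM basal and 126 and 122 in Mir182ΔM/ΔM RANKL samples. The 4 groups did not overlap. The log2 difference between the genotypes after RANKL was 0.53 ± 0.06 (adjusted p = 5.6e-04, limma).

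**Figure D3:**
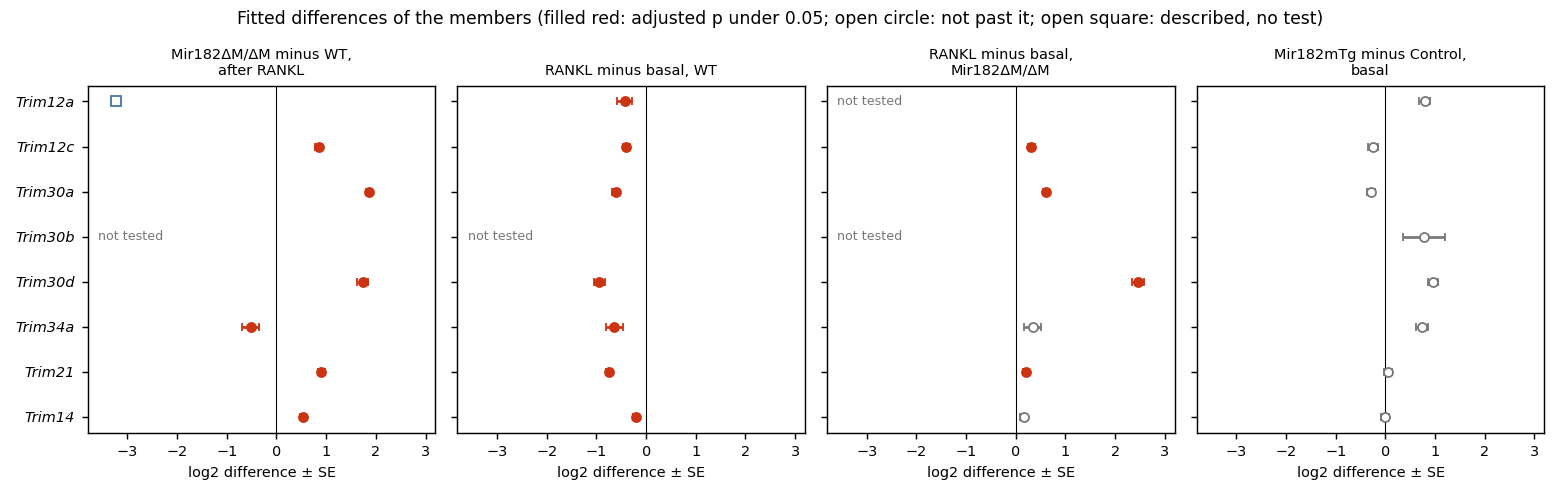
Fitted log2 differences with their SE (horizontal axes) of the 8 genes in 4 contrasts; filled red points have an adjusted p under 0.05, open circles do not, and the open square is Trim12a, described with no test. After RANKL 5 genes are right of 0 and Trim34a and the square of Trim12a left of it, all 7 fitted genes are left of 0 for RANKL in WT, and no point is filled for Mir182mTg against Control.

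After RANKL, 5 of the 6 fitted members other than Trim12a were higher in Mir182ΔM/ΔM cells, where 14.3% of 11691 genes were called higher, and 1, Trim34a, was lower, where 30.9% were called lower. Trim12a, for the reasons given with its values, is left out of these counts. The median log2 difference of all genes was −0.14, and it was −0.01 with TMM factors, with which 2403 genes were higher and 2392 lower, against 1668 and 3607 without them. Osteoclast markers were lower in the same Mir182ΔM/ΔM samples (5 of 6 called, median log2 difference −2.16). Of the 6 macrophage markers, 2 were higher, Cd14 at 0.94 and Adgre1 at 0.74, and 1 was lower, Csf1r at −0.51. Of 6 fitted markers of other cell types, Cdh5 at 1.88 and Pecam1 at 1.24 were higher and Mpo at −1.05 and Elane at −0.39 lower. The part of these markers in the members' values was not tested.

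RANKL in WT cells lowered all 7 fitted members, where 22.0% of genes were called lower and 40.6% higher, with a median of −0.61 over the members against 0.19 over all genes. The median of all genes was −0.01 with TMM factors (3352 higher and 3569 lower), and all 7 were lower with those factors too. The smallest of the 7 responses, Trim14 at −0.20 ± 0.06 (adjusted p = 0.0278, limma), missed the threshold without any one of the 4 WT libraries (adjusted p between 0.0508 and 0.135). Without replicate 1 of WT basal or replicate 2 of WT RANKL, Trim12a and Trim34a missed it as well, which left 4 members lower in each case. Macrophage markers also fell, 6 of 6, and osteoclast markers rose, 6 of 6, in those samples. Of 6 fitted markers of other cell types, 4 were lower, between −2.37 for Mpo and −0.48 for Cdh5, and the part of these markers was not tested.

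RANKL in Mir182ΔM/ΔM cells raised 4 of the 6 members tested, Trim12c, Trim30a, Trim30d and Trim21, where 30.4% of genes were called higher, and lowered 0, where 26.4% were called lower. By limma's test at an unadjusted p under 0.05, Trim14 was higher as well, and none was lower by edgeR or DESeq2 on the recovered reads. In those fits Trim21 missed the threshold (0.16, adjusted p = 0.066, edgeR, and 0.18, adjusted p = 0.092, DESeq2). It missed it too with TMM factors (adjusted p = 0.0686, limma) and with quantile normalization (adjusted p = 0.0925, limma). In the main fit the values that missed the threshold were 0.34 ± 0.17 for Trim34a (adjusted p = 0.126, limma) and 0.16 ± 0.06 for Trim14 (adjusted p = 0.0696, limma). In limma's fit that blocked on the replicate number, all 6 were higher, where 42.7% of genes were. In edgeR's fit with the block on the recovered reads, 5 were, and Trim34a was not (0.36, adjusted p = 0.0683). Without replicate 2 of basal Mir182ΔM/ΔM, 2 members were higher, and Trim12c missed the threshold (adjusted p = 0.0544). In the same samples 6 of 6 osteoclast markers were higher (median 4.52) and 4 of 6 macrophage markers lower (median −0.43). Of 6 fitted markers of other cell types, Cdh5 at 0.81 and Pecam1 at 0.57 were higher and Mpo at −4.09 and Elane at −2.39 lower. The part of these markers was not tested.

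The responses themselves differed between the genotypes. In the interaction term, the RANKL response in Mir182ΔM/ΔM cells minus that in WT cells, 6 of 6 members tested were higher, where 7.44% of genes were called higher and 17.1% lower. The term is also the difference between the genotypes after RANKL minus the one in basal cells, which is given without a test. That basal difference was −1.67 for Trim30d, −1.505 for Trim34a, −0.04 for Trim21, 0.14 for Trim12c, 0.17 for Trim14 and 0.64 for Trim30a. Trim34a, at −0.51 after RANKL, is above 0 in the term only through it. All 6 were also higher with TMM factors, with which 1222 genes were called higher and 1287 lower, against 870 and 2005 without them. Trim30d had the largest value of the 6, 3.41 ± 0.17 (adjusted p = 4.1e-05, limma), and Trim14 the smallest, 0.36 ± 0.09 (adjusted p = 0.0268, limma). Trim14 missed the threshold without any one of 7 libraries (adjusted p between 0.0573 and 0.103) and Trim34a without any one of 4 (adjusted p between 0.0737 and 0.0778). Among the markers, 5 of 6 osteoclast markers were lower in that term, 2 of 6 macrophage markers were higher, Cd14 at 1.07 and Adgre1 at 0.85, and of 6 fitted markers of other cell types Cdh5 and Pecam1 were higher and Mpo and Elane lower, and their part was not tested. These contrasts share samples, so their directions do not count as separate results.

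Gain of miR-182 gave a different picture in the copies. Trim12a was at 12.7 and 12.1 CPM in Mir182mTg against 7.12 and 7.14 CPM in Control. Trim30d was at 18.3 and 17.2 against 9.13 and 8.99 CPM, and Trim34a at 13.1 and 11.7 against 7.79 and 7.03 CPM. The Mir182mTg samples were above the Control samples in each of the 3 genes, with no overlap. Trim30a was at 96.8 and 101 CPM in Mir182mTg and at 124 and 116 CPM in Control, and Trim12c was at 26.6 and 30.4 against 32.4 and 34.6 CPM, both below Control with no overlap. Trim21 (36.9 and 37.4 against 35.8 and 35.0 CPM) and Trim14 (72.8 and 68.7 against 71.0 and 69.8 CPM) stayed close to Control, Trim21 without overlap and Trim14 with overlap. The share of all genes without overlap was not counted, here or for the other conditions compared above. With so few samples a condition, lack of overlap is a description and not a test.

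With edgeR's quasi-likelihood test, 0 of the 8 members passed, where 0.0993% of 12081 genes were called higher and 0.157% lower. Nearest to the threshold were Trim30d, with a log2 difference of 0.96 ± 0.10 (adjusted p = 0.0558, edgeR), Trim12a with 0.79 ± 0.11 (adjusted p = 0.0853, edgeR) and Trim34a with 0.73 ± 0.13 (adjusted p = 0.154, edgeR). At an unadjusted p under 0.05, 3 members were higher (3.89% of genes) and 1 was lower, Trim30a (3.25% of genes). DESeq2 called 2 higher, Trim30d and Trim12a (0.497% of genes), and limma called 1 higher, Trim30d (0.215% of genes). In edgeR's fit that blocked on the replicate number, 3 members were higher, Trim12a, Trim30d and Trim34a (6.94% of genes), and 2 were lower, Trim12c and Trim30a (8.15% of genes). With no filter on low counts edgeR called 3 higher, where 70 of 15917 genes were. The calls thus differed with the filter, the tool and the block, while the log2 differences of the 3 higher members lay between 0.73 and 0.96 in both edgeR fits. With 1 library left out, they lay between 0.91 and 1.01 for Trim30d, 0.75 and 0.83 for Trim12a, and 0.64 and 0.82 for Trim34a. The summed CPM of the macrophage markers was 6220 to 6282 in Control and 6462 to 6535 in Mir182mTg. That of the osteoclast markers was 39 to 43.7 and 59.9 to 69.3, with 0 of 4 fitted called (median log2 difference 0.52). That of the markers of other cell types was 29.7 to 43.3 and 46.1 to 57.8, and the part of all these markers was not tested.

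Set side by side along chromosome 7, the basal differences of the cluster genes had opposite signs in the 2 experiments, an observation made after the values were seen. Of the 8 cluster genes that were fitted in a loss of function contrast, 4 were lower in Mir182ΔM/ΔM than in WT (Trim6, Trim34a, Trim12a and Trim30d) and 4 were higher (Trim34b, Trim12c, Trim30a and Trim30e-ps1), and all 8 had the other sign in Mir182mTg against Control. The experiments share no samples, and the loss of function side is the contrast that selected Trim12a, so no test is given. The share of all genes with opposite signs in the 2 experiments was not counted, so the 8 of 8 has no background beside it. Trim6 was at 0.555 and 0.933 CPM in Mir182ΔM/ΔM against 1.99 and 1.88 in WT, and at 3.72 and 3.72 in Mir182mTg against 1.92 and 2.08 in Control. Trim34b had 5 reads in Mir182mTg and 56 in Control, 11.8-fold higher in Control (exact 95% interval 4.77 to 37.8, for counting error only). The pseudogene Trim30e-ps1 had 0 reads in Mir182mTg and 35 in Control, at least 12.3-fold higher in Control against a floor of 3 reads over the group.

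**Figure D4:**
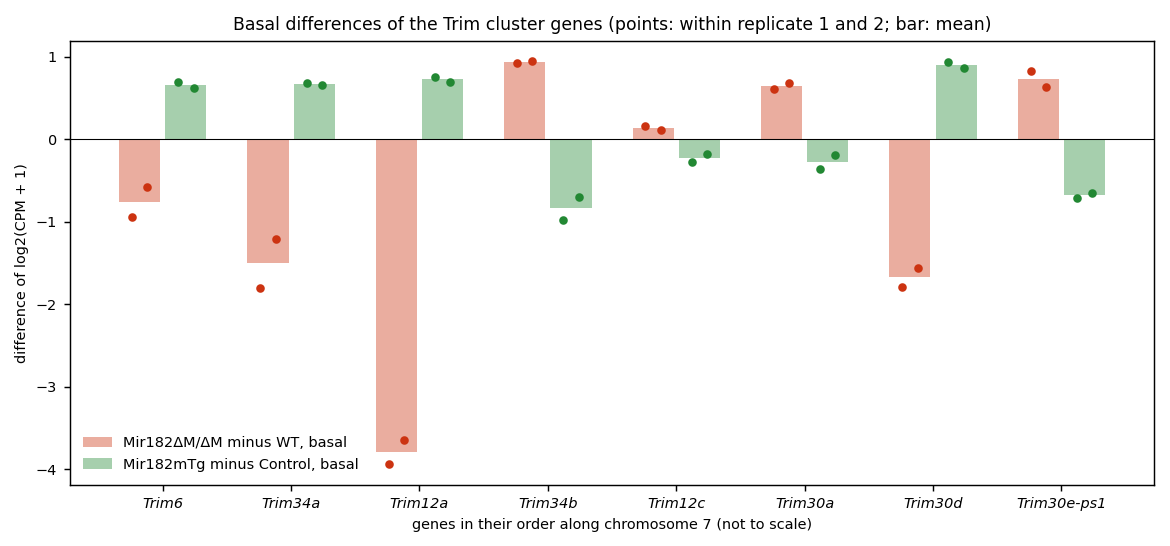
Difference of log2(CPM + 1) (vertical axis) between basal Mir182ΔM/ΔM and WT cells and between basal Mir182mTg and Control cells for 8 genes in their order along chromosome 7; bars are means and points the values within replicates 1 and 2. Each gene's 2 bars point in opposite directions, the longest being Trim12a at −3.79 in Mir182ΔM/ΔM.

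Genes around the cluster were compared as a description. Of 164 annotated genes in the tables that start within 2 Mb on either side, a window also chosen after the values were seen, 18 were fitted, and their differences between basal Mir182ΔM/ΔM and WT ran from −0.34 to 0.85 with a median of −0.09. Trim21 is among them. Within the cluster, 8 genes ran from −3.79 to 0.93. After RANKL the range around the cluster was wider, from −2.28 to 0.90 with a median of −0.35, against −3.24 to 1.93 within it. Around the cluster 1 of the 18 genes was below −1 and 0 were above 1. Within it 1 of 8, Trim12a, was below −1 and 4 were above 1, beside 9.49% of all genes past 1 in either direction. The low ends of the cluster ranges, −3.79 and −3.24, are Trim12a itself, so they were partly set by its selection. Next lowest within the cluster were Trim30d at −1.67 in basal cells and Trim6 at −0.74 after RANKL. For Mir182mTg against Control the range around the cluster was −4.43 to 0.26 with a median of −0.02. There 1 of the 18 was below −1, against 2 of the 9 fitted within the cluster and 1.4% of all genes past 1 in either direction.

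Levels across all 6 conditions order differently from gene to gene. Trim12a was highest in WT basal, Mir182mTg being next with overlapping samples, then came WT RANKL, Control and the Mir182ΔM/ΔM conditions. Trim34a had the same order, with overlap between WT basal and Mir182mTg and between WT RANKL and Control. Trim12c, Trim30a and Trim14 were led by Mir182ΔM/ΔM RANKL, Mir182ΔM/ΔM basal and WT basal in that order, with no overlap between neighbours. Trim21 was led by Mir182ΔM/ΔM RANKL and was lowest in WT RANKL. Control and WT basal are Cre-carrying controls of separate experiments, and Trim12a was 7.13 ± 0.02 CPM (SD, n = 2) in the former and 13.4 ± 1.28 in the latter, so levels are not compared across experiments by a test.

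The genes whose log2(CPM + 1) was most like that of a member over the 12 samples were sought among 10289 genes by Pearson's r, as a description, since samples of one condition are not independent points. For Trim12a they were Gbp2b, an interferon-inducible GTPase (r = 0.978), Fam103a1 (0.964), Alpk1, a kinase of innate immunity (0.924), Ank2 (0.922) and Nlrp1a (0.922). Gbp2b had a mean of 0 CPM in basal and 0.115 CPM in RANKL Mir182ΔM/ΔM cells and of 6.26 and 5.26 CPM in the WT conditions. For Trim30a they were Oasl2 (0.997), Ifit2 (0.99), F830016B08Rik (0.99), Cmpk2 (0.988) and Sdc3 (0.987), of which Oasl2, Ifit2 and Cmpk2 are interferon-stimulated genes. Oasl2 had 309 CPM in basal and 857 CPM in RANKL Mir182ΔM/ΔM cells, against 129 and 61.2 CPM in WT. For Trim21 they were Folr2 (0.972), Grn (0.967), Lgals9 (0.965), Cd40 (0.962) and Neo1 (0.96). For Trim14 they were Azi2 (0.992), Gm13157 (0.984), Hccs (0.984), Wdfy1 (0.983) and Fgl2 (0.982).

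Genes that carry the interferon signal upstream of the members were compared after RANKL. Of 13, 9 were higher in Mir182ΔM/ΔM than in WT cells and 3 lower, where 14.3% and 30.9% of all genes were, with a median log2 difference of 0.40. Stat2 was higher by 2.32 (adjusted p = 6.4e-07, limma), Irf9 by 0.80 (adjusted p = 1.2e-04, limma) and Irf7 by 4.74 (adjusted p = 8.0e-08, limma). The receptor chain Ifnar1 was higher by 0.23 (adjusted p = 0.0156, limma), and Irf8, a macrophage lineage factor, was lower, at −0.82 (adjusted p = 7.7e-05, limma). RANKL in WT lowered 7 of the 13 (22.0% of all genes) and raised 1, Irf3 (40.6%). In Mir182ΔM/ΔM it raised 8 (30.4%) and lowered 2 (26.4%). Against Control, 0 of 13 passed in Mir182mTg by edgeR's test, with −0.63 for Eif2ak2, the double-stranded RNA kinase PKR (adjusted p = 0.0853, edgeR), and −0.62 for Irf7 (adjusted p = 0.0911, edgeR). That fit had no replicate block, and a fit with it is not given here for these 13. Eif2ak2 was at 78 and 73 CPM in Mir182mTg and at 121 and 111 CPM in Control. The paper reports Eif2ak2 as suppressed in Mir182mTg cells by its own edgeR analysis, and PKR as regulated by miR-182 in mRNA and protein.

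Of 12 genes whose proteins act with these TRIM proteins, 3 were higher and 4 lower after RANKL in Mir182ΔM/ΔM cells, near the 14.3% and 30.9% of all genes, and their median was −0.15 against WT. The RNA sensors Ifih1 (2.002, adjusted p = 1.0e-05, limma) and Ddx58 (1.90, adjusted p = 2.0e-05, limma) and the DNA sensor Mb21d1 (1.15, adjusted p = 1.9e-04, limma) were the higher ones. The adaptor Tmem173 (STING) was lower, at −0.88 (adjusted p = 9.9e-05, limma), as was Traf6, at −0.67 (adjusted p = 0.00113, limma). The Trim30a targets Tab2 (−0.35, adjusted p = 0.177, limma) and Tab3 (−0.18, adjusted p = 0.351, limma), and Mavs (−0.12, adjusted p = 0.187, limma), did not pass.

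The rest of the family is given for comparison. Of 59 other Trim genes in the tables, 32 were fitted, and after RANKL 4 were higher and 9 lower in Mir182ΔM/ΔM cells, near the 14.3% and 30.9% of all genes, with a median of −0.10 beside −0.14 over all genes. Of the 6 of them listed for their place on chromosome 7, Trim34b was higher by 1.93 (adjusted p = 2.5e-04, limma) and Trim30e-ps1 by 1.87 (adjusted p = 3.3e-04, limma). Trim68 was lower at −0.35 (adjusted p = 0.0295, limma). Trim6, at −0.74, passed the filter on low values through its WT samples alone, so its value is a description with no test. It is among the 9 counted as lower. Trim3 was at −0.14 (adjusted p = 0.203, limma), and Trim66 was too low to be fitted. RANKL in WT lowered 7 of the 32 (22.0% of all genes) and raised 11 (40.6%), and 3 were higher (7.44%) and 3 lower (17.1%) in the interaction. No test of the difference between members and the other Trim genes was made, since the members were selected on these data.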

How the data were processed

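The authors made poly-A+ libraries and sequenced them on a HiSeq instrument. The sample labels give poly-A RNA for replicate 1 and total RNA for replicate 2, while their protocols describe selection of poly-A RNA in both. The submitters' processing notes name mm10, with TopHat and Cufflinks for replicate 1 and HISAT2, HTSeq and edgeR for replicate 2. The authors deposited CPM for WT and Mir182ΔM/ΔM (8 samples) and the raw count of reads per gene for Control and Mir182mTg (4 samples). For replicate 1 the deposited files also hold RPKM, here the CPM divided by one length per gene, from which CPM per kb was taken for both replicates. Of the deposited CPM values, 100% were whole multiples of the value of 1 read within 0.01 read, so reads were recovered. Counts were scaled to 1000000 for levels. Of 24421 names, 27 had been turned into dates and carry no gene name.

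CPM were tested on the log2(CPM + 1) scale by limma 3.58.1 with a mean-variance trend, in one fit of 4 groups. It held the 11691 genes that reached 1 CPM in 2 or more samples. Counts were tested with edgeR (4.0.16, TMM, filterByExpr, quasi-likelihood) over 12081 genes. Benjamini-Hochberg adjustment ran over all genes of a contrast, with a threshold of 0.05 and no cut on the fold. The SE of an edgeR value is its size divided by the square root of F. Samples were grouped from their labels. Across genes, the log2 ratios of replicate 2 to replicate 1 correlated between every pair of the 6 conditions, also across the experiments (Pearson's r from 0.686 to 0.754). The replicate number thus marks a difference shared by all conditions. It goes with the molecule label, the tools named and the Rn45s level, and no label pairs samples or mice by it. For the members, fits with the replicate number as a block are given where they change a call. Replicates differed by more than sampling noise in every condition.

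The members and gene lists were chosen with earlier results of these data known. Named genes are the members, 4 fixed lists and, for Trim12a, Trim30a, Trim21 and Trim14, the 5 genes of highest correlation among genes that reached 5 CPM in 2 or more samples. Alternatives were other pseudocounts, filters, scalings, tools (DESeq2 1.42.0), the block, fewer samples and sums of copies. Scripts were tested on simulated data. Gene models are GENCODE vM21, and start sites and the miRNA are RefSeq's. Trim5, Trim30c and Ly6g were not analysed here. Some genes of the lists are counted with the rest and are not reported here by name.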

Additional observations from a re-analysis of the deposited data

Results flagged for a closer look

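In 6 of the members the RANKL response differed between the genotypes by limma's interaction term, the response in Mir182ΔM/ΔM cells minus that in WT cells on the log2 scale. That term holds the basal difference between the genotypes, which is given without a test because of how the genes were chosen. The difference was 3.41 for Trim30d (adjusted p = 4.1e-05, limma), 1.22 for Trim30a (adjusted p = 2.0e-04, limma) and 0.94 for Trim21 (adjusted p = 4.5e-04, limma). It was 0.72 for Trim12c (adjusted p = 0.0023, limma), 0.99 for Trim34a (adjusted p = 0.024, limma) and 0.36 for Trim14 (adjusted p = 0.0268, limma). Both replicate numbers gave a response below 0 in WT and above 0 in Mir182ΔM/ΔM for all 6. Trim34a lost the call without replicate 1 of WT basal, replicate 2 of WT RANKL, replicate 1 of basal Mir182ΔM/ΔM or replicate 2 of Mir182ΔM/ΔM RANKL (adjusted p between 0.0737 and 0.0778). Trim14 kept it only without replicate 2 of WT basal, and lost it without any one of the 7 other libraries (adjusted p between 0.0573 and 0.103). The other 4 members kept it whichever library was left out.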

How the results depend on the processing

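With 2 replicates a condition, calls near the threshold turned on single libraries and on scaling, and genes with few reads, such as Trim30b and Trim12a in Mir182ΔM/ΔM cells, have fold changes that depend on the pseudocount. Lower members after RANKL were 2 when Trim12a, described with no test, is counted with Trim34a. They were 1 with no filter, with TMM factors, with quantile normalization and with edgeR or DESeq2 on recovered reads. Trim34a was the one lost in those settings, so no tested member was lower in them, and the 1 left was Trim12a. They were also 1 with at least 1 CPM in every sample, where Trim12a was not fitted and Trim34a stayed lower. Since the selection of Trim12a bears on its values, counts that include it cannot show how well the result after RANKL holds. The counts after RANKL with fewer samples include it too. Leaving out 1 sample gave 1 to 2 lower members there, 4 to 7 lower members for RANKL in WT and 2 to 4 higher members for RANKL in Mir182ΔM/ΔM. The basal difference of Trim12a, −3.79, was −6.67 with a pseudocount of 0.1, −1.87 with one of 5, −8.35 with edgeR, with or without the replicate block, −8.52 with DESeq2 and −0.19 for its sum with Trim12c. After RANKL the summed pair gave 0.55, the reverse of Trim12a alone.

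For Mir182mTg against Control, 0 members were called in the main result. Higher members were 3 and lower members 2 with the replicate block, in edgeR (838 and 984 of 12081 genes) and, added after the data were seen, in limma (1181 and 1082). Higher members were 3 with no filter (70 of 15917 genes), 2 with DESeq2 (60 of 12081) and 1 with limma (26 of 12081). Trim30d summed with Trim30a and Trim30b gave −0.14, the reverse of Trim30d alone. Trim14, −0.0014, changed sign, to 0.0011 with no filter, 6.0e-05 with the stricter filter, 0.0069 with limma, with or without the block, and lay between −0.048 and 0.042 with 1 sample left out. With the replicate block, Trim34a (adjusted p = 0.0209, limma) and Trim14 (adjusted p = 4.6e-04, limma) rose with RANKL in Mir182ΔM/ΔM cells. The cause of these changes was not tested.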
